A study of Rattus norvegicus with 8 samples.

Results

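The genes described here are 32 genes of cholesterol and lipid synthesis and transport, set against the whole expression table of the study. A gene was counted as found where the gene name that the array design gives a probe equalled its symbol, which held for 30 of the 32 genes, on 34 of the 30367 probes of the array. Of these 30, 28 had signal well above background on the 2 arrays of 1 or more groups and entered the test, among 18171 genes tested in all. They fall into 16 sterol synthesis enzymes, 5 regulators of the sterol response, 5 of 6 genes of sterol transport, storage and efflux, and 2 of 3 genes of fatty acid synthesis. Soat1, which esterifies cholesterol for storage, and Acaca, which commits acetyl-CoA to fatty acid synthesis, did not pass. Each of them was well above background on 1 of 8 arrays. Sc5d and Acat2 were on the array only under older names (Sc5dl and Acat3). Their expression values are given apart and stand in none of the expression counts, while their promoters are counted with the others.

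Animal cells make cholesterol from acetyl-CoA through mevalonate, squalene and lanosterol. When sterol in the endoplasmic reticulum is low, Scap escorts the SREBP factors to the Golgi for cleavage, and the factor encoded by Srebf2 then switches on the synthesis enzymes together, while the Insig proteins hold Scap back when sterol is plentiful. When oxysterols accumulate, the LXR receptors switch on the exporters Abca1 and Abcg1, and the factor encoded by Srebf1 drives fatty acid synthesis. In the intestine, epithelial cells both make cholesterol and take it up.

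The study used the colon of female Wistar rats, 14 weeks old, and 8 single-colour arrays. There were 4 groups of 2 arrays: healthy rats fed sunflower oil without DSS, and 3 colitis groups that drank 5% dextran sulfate sodium (DSS), which damages the mucosa of the colon, during 7 days. The colitis groups had been fed sunflower oil (the n-6 group), α-linolenic acid (ALA, the n-3 acid of plant oils) or fish oil rich in long-chain n-3 fatty acids, and diets lasted 8 weeks in all groups. The RNA of 6 rats was pooled, out of 6 healthy rats and out of 10 in each colitis group, so the arrays of a group do not stand for separate animals and the p-values measure the spread between arrays. The study compared each n-3 diet with the n-6 diet.

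All 8 arrays lay on 1 slide. ALA and healthy arrays shared row 1 while fish oil and n-6 arrays shared row 2. The row of the slide cannot be told apart from the group in n-6 versus healthy, fish oil versus healthy, ALA versus n-6 and ALA versus fish oil. In ALA versus healthy and fish oil versus n-6 the side of the slide, by column, cannot. The side cannot be told apart either, along with the row, in fish oil versus healthy and ALA versus n-6. Fish oil replicate 1 was the dimmest array, with a 75th percentile intensity of 115 against 239 to 440 on the others. Of 9 colonocyte markers on the array 9 passed the filter, each well above background on at least 5 arrays, as did 6 of 6 smooth muscle markers, while 1 of 6 hepatocyte markers did. Each level below is a log2 signal minus the 75th percentile of the same array, with n = 2 arrays per group throughout. They are comparable for 1 gene across arrays and not between genes, and the number of arrays limits the precision.

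The stretches before the start of 4 genes are shown because they carry the NF-Y box that the SREBP factors need beside their own site, and that of Dhcr7 as an example without the box. Each is the 250 bases before the RefSeq start, 5′ to 3′ in the direction of the gene, and capitals mark the NF-Y box (CCAAT, or ATTGG where it lies on the other strand).
Hmgcs1, GRCr8 chr2:53382054-53382303, plus strand: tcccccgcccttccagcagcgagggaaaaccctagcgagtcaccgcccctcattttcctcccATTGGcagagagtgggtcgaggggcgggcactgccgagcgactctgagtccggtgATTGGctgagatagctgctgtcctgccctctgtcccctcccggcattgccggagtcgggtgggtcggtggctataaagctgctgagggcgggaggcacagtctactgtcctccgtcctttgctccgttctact
Idi1, GRCr8 chr17:66547525-66547774, minus strand: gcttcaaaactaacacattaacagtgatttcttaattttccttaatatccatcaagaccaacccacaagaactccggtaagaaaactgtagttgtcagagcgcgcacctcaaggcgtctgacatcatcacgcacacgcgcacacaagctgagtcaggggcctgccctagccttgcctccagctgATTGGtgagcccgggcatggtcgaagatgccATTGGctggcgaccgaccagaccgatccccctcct
Fdps, GRCr8 chr2:176804817-176805066, minus strand: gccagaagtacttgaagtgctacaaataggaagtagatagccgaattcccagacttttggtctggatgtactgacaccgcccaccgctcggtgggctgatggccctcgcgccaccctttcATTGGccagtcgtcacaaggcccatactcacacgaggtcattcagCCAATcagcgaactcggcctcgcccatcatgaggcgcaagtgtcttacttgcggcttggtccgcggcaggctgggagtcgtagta
Insig1, GRCr8 chr4:8057770-8058019, minus strand: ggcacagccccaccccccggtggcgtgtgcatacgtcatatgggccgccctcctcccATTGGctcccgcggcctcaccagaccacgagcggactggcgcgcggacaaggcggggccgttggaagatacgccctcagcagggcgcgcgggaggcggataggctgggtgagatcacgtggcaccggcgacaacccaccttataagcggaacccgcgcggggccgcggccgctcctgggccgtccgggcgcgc
Dhcr7, GRCr8 chr1:208444184-208444433, plus strand: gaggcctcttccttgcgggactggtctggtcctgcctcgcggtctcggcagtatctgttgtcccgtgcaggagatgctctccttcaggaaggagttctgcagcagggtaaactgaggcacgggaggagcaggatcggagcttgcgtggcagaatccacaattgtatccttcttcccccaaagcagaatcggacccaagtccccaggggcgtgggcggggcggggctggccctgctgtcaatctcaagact

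Promoters of 25 of the 32 genes were in the RefSeq table. An NF-Y box on either strand lay in 12 of 15 sterol enzyme promoters, against 34% of all 33469 promoters of that length and 34.7% of the 11724 that belong to genes tested here. Mvk and Nsdhl each held 5 copies, Hsd17b7 held 3, and Hmgcs1, Idi1, Fdps and Ebp each held 2. None was found in Cyp51, Dhcr7 and Acat2. Having the box did not sort the enzymes by their levels. Cyp51 and Acat2, without it, correlated with the mean of the enzymes over the 8 arrays at r = 0.90 and 0.88, Dhcr7, also without it, at 0.01, and Ggps1, with 1 copy, at -0.70. The Sp1 box (GGGCGG, both strands) lay in 12 of 15, against 30.5% of all promoters and 53.5% of those of tested genes. The sterol response element spelled TCACNCCAC (N is any base; both strands) was found in 0 of the 25 promoters and in 0.974% of all. Its stricter spelling, with an A in front and a C at the open position, is a subset of these and lay in 0.105% of all. An LXR site, spelled GGTCA, 4 open bases and AGGTCA, was found on either strand in 0 of the 25 and in 0.00896% of all. A match is a description of letters, and an absent match says only that these letters are not in this window.

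The sterol synthesis enzymes stood highest in the fish oil colitis colon and lowest in the healthy colon. The group mean of fish oil was the highest of the 4 in 12 of 16 enzymes, where 26.8% of all genes had their highest mean, and that of healthy was the lowest in 11 of 16, against 24.7% of all genes. No enzyme passed the test in any comparison, so these are descriptions of the arrays. Against healthy, the median log2 difference of the 16 enzymes was 0.95 in fish oil colitis, 0.76 in ALA colitis and 0.42 in n-6 colitis, beside 0.00287, 0.04 and 0.03 over all genes tested. These 3 comparisons share the healthy arrays. In bulk tissue, fewer cells of a type and less RNA per cell cannot be told apart.

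**Figure D1:**
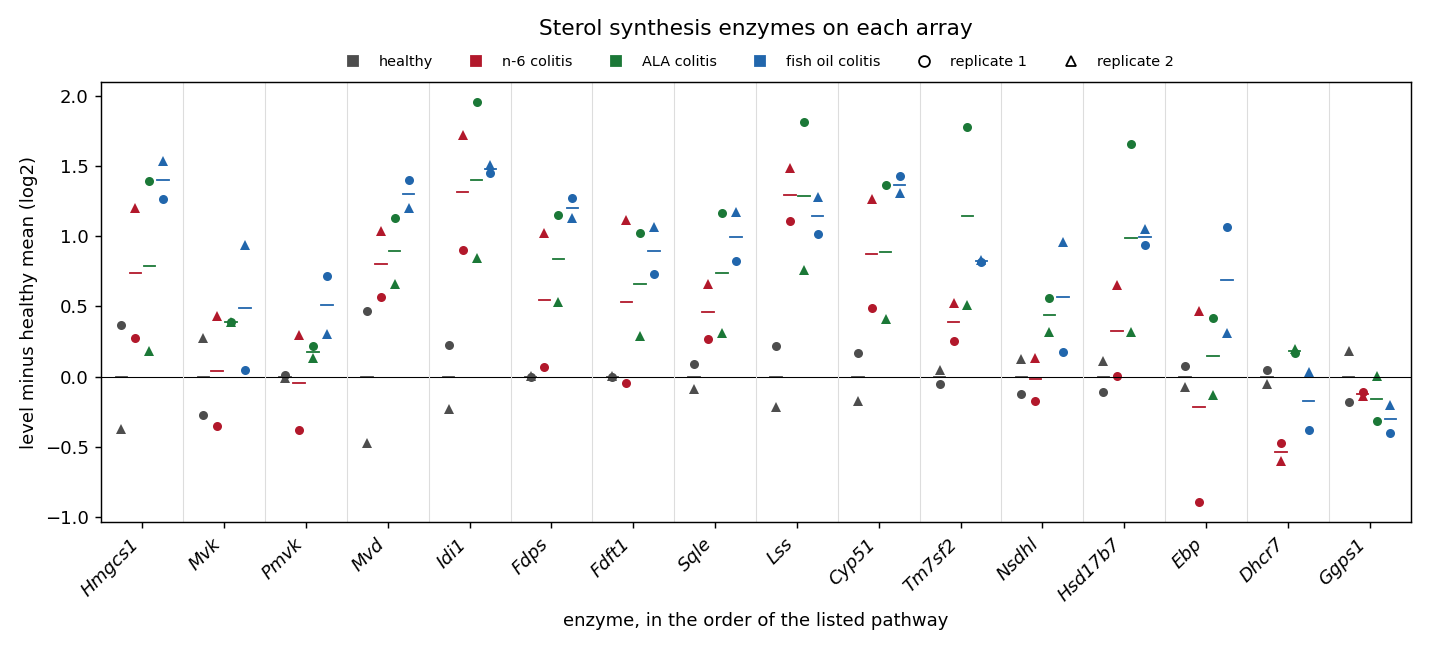
Level of each of the 16 sterol synthesis enzymes on each of the 8 arrays, as the log2 difference from that gene's healthy mean (y axis), with enzymes in pathway order (x axis). Colours are groups, circles and triangles are replicates 1 and 2, and short lines are group means; from Mvd to Cyp51 both fish oil arrays lie above both healthy arrays, while Dhcr7 and Ggps1 do not follow.

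Hmgcs1 encodes the cytosolic synthase that makes HMG-CoA for the pathway. Its level was 5.43 and 4.69 on the healthy arrays, 5.33 and 6.26 on the n-6 arrays, 6.45 and 5.24 on the ALA arrays, and 6.32 and 6.59 on the fish oil arrays. The fish oil arrays were the closest pair of the 4 and lay above both healthy arrays, whereas the n-6 and ALA pairs were each split and overlapped healthy. The log2 difference of fish oil from healthy was 1.40 (SE 0.53, unadjusted p = 0.0333, limma).

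Mevalonate is then phosphorylated and decarboxylated by Mvk, Pmvk and Mvd. The decarboxylase Mvd stood at 1.51 and 0.56 in healthy, 1.60 and 2.07 in n-6, 2.16 and 1.69 in ALA, and 2.44 and 2.24 in fish oil. All 6 colitis arrays lay above both healthy arrays, and fish oil was 1.30 above healthy (SE 0.41, unadjusted p = 0.0156, limma). The kinases differed less: Mvk was 0.49 and Pmvk 0.51 above healthy in fish oil, and only the Pmvk arrays did not overlap.

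Idi1, the isomerase that makes the allylic isoprenoid unit, is 1 of the 4 genes selected by the rule for named genes. It measured 1.91 and 1.46 in healthy, 2.59 and 3.40 in n-6, 3.64 and 2.53 in ALA, and 3.14 and 3.19 in fish oil. Every colitis array exceeded both healthy arrays. The difference from healthy was 1.31 in n-6 colitis (SE 0.47, unadjusted p = 0.0270, limma adjusted p = 0.288), 1.40 in ALA colitis and 1.48 in fish oil colitis, and the 3 diets lay within 0.17 of each other on average.

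Fdps and Fdft1 carry isoprenoids to farnesyl diphosphate and squalene. The Fdps probe used read 1.73 and 1.74 in healthy, 1.80 and 2.75 in n-6, 2.88 and 2.26 in ALA, and 3.0 and 2.86 in fish oil. Replicate 1 of n-6 was thus next to healthy and its partner next to fish oil, and fish oil was 1.20 above healthy (SE 0.41, unadjusted p = 0.0212, limma). The other Fdps probe gave 1.04 for the same difference. Fdft1 had the same split, at 1.60 and 1.61 in healthy, 1.56 and 2.72 in n-6, 2.63 and 1.89 in ALA, and 2.33 and 2.67 in fish oil.

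Sqle and Lss turn squalene into lanosterol, the first sterol of the pathway. Sqle, a rate-limiting oxygenase, stood at 2.40 and 2.22 in healthy, 2.58 and 2.96 in n-6, 3.47 and 2.61 in ALA, and 3.13 and 3.48 in fish oil, with no colitis array inside the healthy range. Lss, also selected by the rule, stood at -0.70 and -1.14 in healthy, 0.19 and 0.57 in n-6, 0.90 and -0.16 in ALA, and 0.09 and 0.36 in fish oil. Its difference from healthy was much alike in the 3 diets, 1.30 in n-6 (SE 0.42, unadjusted p = 0.0182, limma adjusted p = 0.256), 1.29 in ALA and 1.14 in fish oil. Lss was lower in fish oil than in n-6 by 0.15, which is within the spread of the arrays.

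Cyp51, the lanosterol demethylase, read 1.04 and 0.70 in healthy, 1.35 and 2.13 in n-6, 2.23 and 1.28 in ALA, and 2.29 and 2.18 in fish oil. Fish oil was 1.37 above healthy (SE 0.43, unadjusted p = 0.0160, limma), and all colitis arrays lay above healthy. The sterol reductase Tm7sf2 had its highest level on ALA replicate 1, at 1.20 against -0.07 on ALA replicate 2, 0.24 and 0.25 in fish oil, -0.33 and -0.06 in n-6, and -0.63 and -0.53 in healthy. That array set most of its difference of 1.14 between ALA and healthy, which was 0.51 without it. Hsd17b7, a ketosteroid reductase of the pathway, was split likewise at 0.33 and -1.01 in ALA, against -0.38 and -0.27 in fish oil and -1.43 and -1.22 in healthy.

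Nsdhl, a decarboxylating dehydrogenase, ranged from -2.72 on n-6 replicate 1 to -1.59 on fish oil replicate 2. Ebp, a sterol isomerase, ranged from 2.95 on n-6 replicate 1 to 4.91 on fish oil replicate 1, and its group means differed from healthy by -0.22 in n-6, 0.14 in ALA and 0.69 in fish oil. Sc5d and Acat2, found under older names, were 0.77 and 0.47 above healthy in fish oil, with no overlap of the arrays in either. A weaker second probe of Acat2 ran lower on n-6 replicate 1 than on any other array, at -4.03. For fish oil versus healthy that probe gave 0.16, and its arrays overlapped, at -2.98 and -1.33 against -2.31 and -2.32.

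A pair of enzymes did not follow the rest. Dhcr7, the reductase of the last step to cholesterol, was selected by the rule for ALA versus n-6 and read 0.03 and -0.08 in healthy, -0.50 and -0.62 in n-6, 0.14 and 0.17 in ALA, and -0.41 and 0.01 in fish oil. Both n-6 arrays were the lowest of the 8. ALA was 0.72 above n-6 (SE 0.29, unadjusted p = 0.0439, limma adjusted p = 0.851), and n-6 lay 0.54 below healthy without overlap. Ggps1, which makes geranylgeranyl diphosphate on a side branch that does not lead to sterols, read -1.04 and -0.68 in healthy, -0.97 and -1.0 in n-6, -1.17 and -0.86 in ALA, and -1.26 and -1.06 in fish oil. It was the only enzyme of the 16 whose fish oil arrays both lay below both healthy arrays.

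In fish oil colitis versus healthy, 0 of 28 genes passed limma's test at an adjusted p of 0.05, where 0% of all 18171 genes did. At an unadjusted p under 0.05, 8 of the 28 were higher and 0 lower, while 1.77% of all genes were higher and 2.13% lower. Of the 8, 7 were sterol enzymes (Hmgcs1, Mvd, Idi1, Fdps, Sqle, Lss and Cyp51) and the other was Insig1, and these 8 were singled out after their values were seen. The arrays did not overlap in 13 enzymes that were higher and 1 that was lower, where 18.3% of all genes were higher and 20.5% lower without overlap. The adjusted p of every enzyme lay between 0.994 and 0.996. The count of 7 enzymes became 0 without fish oil replicate 1, 0 without healthy replicate 2 and 2 without fish oil replicate 2, while the median difference then ran from 0.88 to 1.06.

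**Figure D2:**
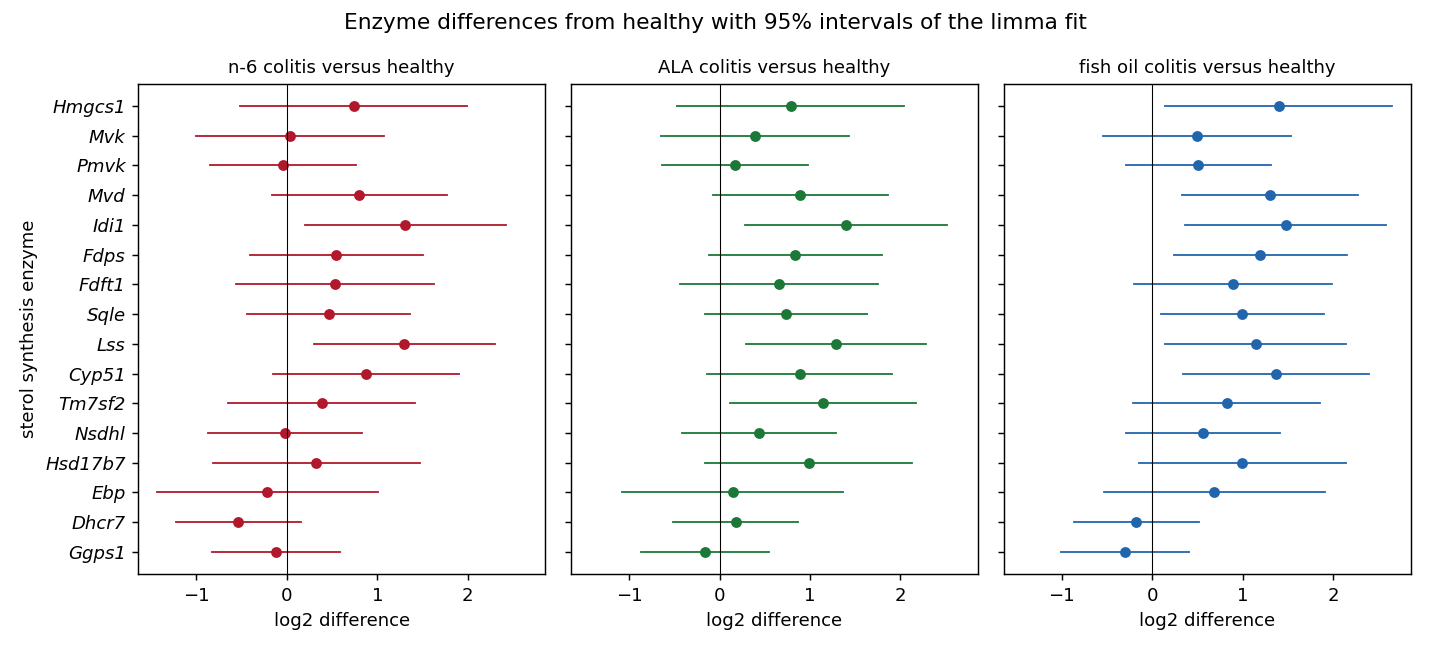
Log2 difference of each sterol synthesis enzyme (y axis) from healthy in the 3 colitis groups (panels), with the 95% interval of the limma fit as a line; the x axis is the log2 difference and the vertical line is 0. In fish oil colitis 7 of 16 intervals lie above 0, in ALA colitis 3 and in n-6 colitis 2, and none of these enzymes passes adjustment over all genes.

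In ALA colitis versus healthy, 0 of 28 genes passed limma's adjusted threshold, where 0% of all genes did, and 3 were higher at an unadjusted p under 0.05 (4.36% of all genes were higher). These were Idi1, Lss and Tm7sf2. Of the 16 enzymes 15 were positive and 13 were higher without overlap, against 22.5% of all genes. The median of 0.76 was 0.32 without ALA replicate 1 and 1.14 without ALA replicate 2, so the array left in decided its size.

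In n-6 colitis versus healthy, 0 of 28 genes passed limma's adjusted threshold, where 0.0385% of all genes did, and 2 of 28, Idi1 and Lss, had an unadjusted p under 0.05, where 14.3% of all genes did. Of the 16 enzymes 11 were positive, 7 were higher without overlap, against 23.8% of all genes, and Dhcr7 alone was lower without overlap (21.7% of all genes). The replicates disagreed. On replicate 1 the median of the enzymes was 0.036 above the healthy mean, and on replicate 2 it was 0.65 above.

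For the diet comparisons in colitis, the enzymes were on balance above n-6 in both n-3 groups. Fish oil colitis versus n-6 colitis gave a median of 0.50, 14 of 16 positive, 10 higher without overlap (23% of all genes) and Ggps1 lower without overlap (23.6%). Again 0 of 28 genes passed limma's adjusted threshold, where 0.0385% of all genes did, and 1 of 28, Abcg1, had an unadjusted p under 0.05, against 12% of all genes. With each array centred on its median instead of its 75th percentile, 4 enzymes were higher without overlap and the median was 0.37, with all genes at -0.12. Without n-6 replicate 1 the median was 0.21, and without n-6 replicate 2 it was 0.79.

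ALA colitis versus n-6 colitis gave a median of 0.25 over the enzymes, beside 0.07 over all genes. None of the 28 genes passed limma's adjusted threshold, where 0.0275% of all genes did, and 1 of 28, Dhcr7, had an unadjusted p under 0.05, against 5.81% of all genes. Dhcr7 and Nsdhl were the 2 enzymes higher without overlap (16.9% of all genes). Leaving out n-6 replicate 1 gave a median of -0.13 and leaving out ALA replicate 1 gave -0.01, so its sign rested on single arrays. These values share the n-6 arrays with those of fish oil.

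Set directly against each other, ALA colitis and fish oil colitis differed by a median of -0.18 over the enzymes, with 12 of 16 lower in ALA. None of the 28 genes passed limma's adjusted threshold, where 0% of all genes did, and 2 of 28, Abca1 and Abcg1, had an unadjusted p under 0.05, against 9.6% of all genes. Pmvk and Mvd were lower in ALA without overlap (20.4% of all genes) and Dhcr7 was higher (25.3%). For Hmgcs1 the difference was -0.61 with a 95% interval from -1.86 to 0.64, so neither a like level nor a difference of more than 2-fold can be read from it.

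The enzymes varied together from array to array. Over the 8 arrays the median pairwise correlation among the 16 was r = 0.65, with 61.7% of the 120 pairs over 0.5, beside a median of 0.02 and 16.5% over 0.5 among all gene pairs. After group means were removed the median was 0.50. The 2 arrays of a group then mirror each other, and the same median over all genes was not computed, so this value cannot be judged. The enzymes nearest to the mean of the list were Fdps (r = 0.96), Sqle (0.95), Fdft1 (0.94) and Hsd17b7 (0.93), and Dhcr7 (0.01) and Ggps1 (-0.70) were farthest. These correlations are descriptions over 8 arrays that share scaling and slide, and an enzyme was left out of the mean it was set against. The median of the enzymes was 0.036 and 0.65 above the healthy mean on the n-6 arrays, 1.14 and 0.32 above it on the ALA arrays, and 0.88 and 1.06 above it on the fish oil arrays. ALA replicate 1 was thus the highest single array, and n-6 replicate 2 lay above ALA replicate 2, so the order of the group medians did not hold array by array.

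**Figure D3:**
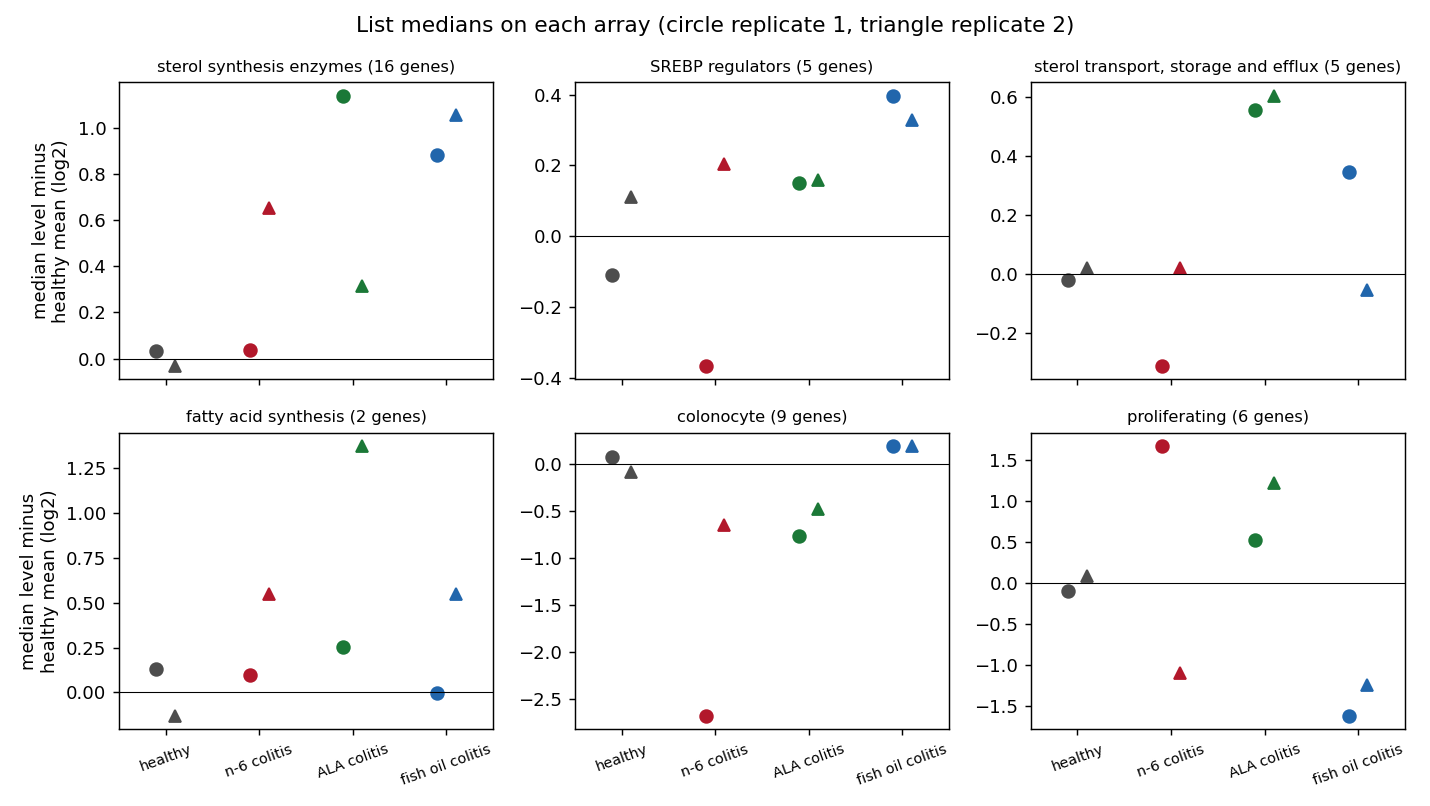
Median log2 level of each list minus its healthy mean (y axis) on each of the 8 arrays (x axis, by group), with circles for replicate 1 and triangles for replicate 2; the upper row and lower left panel are the described lists and the other two panels are marker lists. The fish oil arrays are close to each other in the enzyme panel at 0.88 and 1.06, while the n-6 arrays are split in the enzyme, colonocyte and proliferating panels.

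Among the regulators of the sterol response, Insig1 had the widest differences from healthy. Insig1, which retains the SREBP-Scap complex and is itself a target of it, read 1.60 and 2.34 in healthy, 2.92 and 3.05 in n-6, 3.49 and 2.32 in ALA, and 3.20 and 3.42 in fish oil. Both n-6 and both fish oil arrays lay above healthy, ALA replicate 2 lay inside the healthy range, and fish oil was 1.34 above healthy (SE 0.46, unadjusted p = 0.0226, limma). Srebf2, the gene of the sterol-sensing factor, stood at 2.64 and 2.61 in healthy, 2.26 and 2.83 in n-6, 3.0 and 2.79 in ALA, and 2.97 and 3.08 in fish oil. Its fish oil mean was 0.40 above healthy and 0.48 above n-6, without overlap in either case, and its level followed the enzyme mean over the 8 arrays (r = 0.89).

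Scap did not follow the enzymes (r = 0.08), and its ALA arrays, at 2.55 and 2.87, both lay below the healthy ones at 2.96 and 3.15. Srebf1, the gene of the factor that drives fatty acid synthesis, was 0.39 above n-6 in ALA and 0.31 above it in fish oil. The probes of Insig2 disagreed: for ALA versus n-6 the brighter gave -0.58 and the dimmer 0.69, so no direction is given. Over the 5 regulators the median difference from healthy was -0.08 in n-6, 0.21 in ALA and 0.13 in fish oil.

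Both sterol exporters, Abcg1 and Abca1, had their lowest group mean in fish oil colitis, and that of Abca1 was close to healthy. Abcg1, which passes cholesterol to mature HDL, was selected by the rule and read 1.20 and 1.43 in healthy, 1.85 and 1.34 in n-6, 1.61 and 1.92 in ALA, and 0.78 and 0.89 in fish oil. Both fish oil arrays were the lowest of the 8. Fish oil lay 0.76 below n-6 (log2 difference -0.76, SE 0.32, unadjusted p = 0.0481, limma adjusted p = 0.412), and ALA was 0.93 above fish oil (SE 0.32, unadjusted p = 0.0222, limma adjusted p = 0.476).

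Abca1, which loads cholesterol onto lipid-poor apolipoprotein, read -2.79 and -2.75 in healthy, -2.03 and -2.91 in n-6, -1.76 and -2.16 in ALA, and -2.99 and -2.82 in fish oil. Its fish oil mean differed from healthy by -0.14 (SE 0.37), lower without overlap, as were 20.5% of all genes. Replicate 2 of n-6 lay between the fish oil arrays. The ALA mean was 0.95 above fish oil (SE 0.37, unadjusted p = 0.0388, limma adjusted p = 0.497) and 0.81 above healthy, without overlap in both. With normexp background correction the first difference was 0.17, so for this dim probe the size depended on how background was treated. That of Abcg1 was 0.93 under the same correction. Abcg1 had r = -0.40 with the enzyme mean over the 8 arrays and Abca1 had 0.02.

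Of the carriers inside the cell, Stard4 moves cholesterol between membranes and is a known SREBP target. It read 2.64 and 2.11 in healthy, 1.59 and 2.34 in n-6, 2.93 and 2.24 in ALA, and 2.72 and 3.15 in fish oil. Fish oil was 0.97 above n-6 without overlap (SE 0.42, unadjusted p = 0.0550, limma adjusted p = 0.416), and its second probe gave 1.04. Npc1, which releases cholesterol from lysosomes, read 3.05 and 3.02 in healthy, 2.72 and 3.99 in n-6, 3.73 and 2.74 in ALA, and 3.85 and 4.15 in fish oil. It followed the enzymes (r = 0.85), with the same split of the n-6 and ALA pairs.

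Npc1l1, the importer of dietary cholesterol at the brush border, varied most of the 28 within groups, from -5.62 to -2.64 between the n-6 arrays and from -5.19 to -1.37 between the ALA arrays. It was well above background on 6 arrays. Soat1 lay between -7.93 and -5.76 on the 8 arrays, near background. The median over the 5 tested genes of transport and efflux was 0.64 for fish oil versus n-6 and -0.35 for ALA versus fish oil, yet the list holds members with differences of opposite sign. Without single arrays the first median ran from -0.00092 to 1.28 and the second from -0.13 to 0.74, so neither describes the list.

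**Figure D4:**
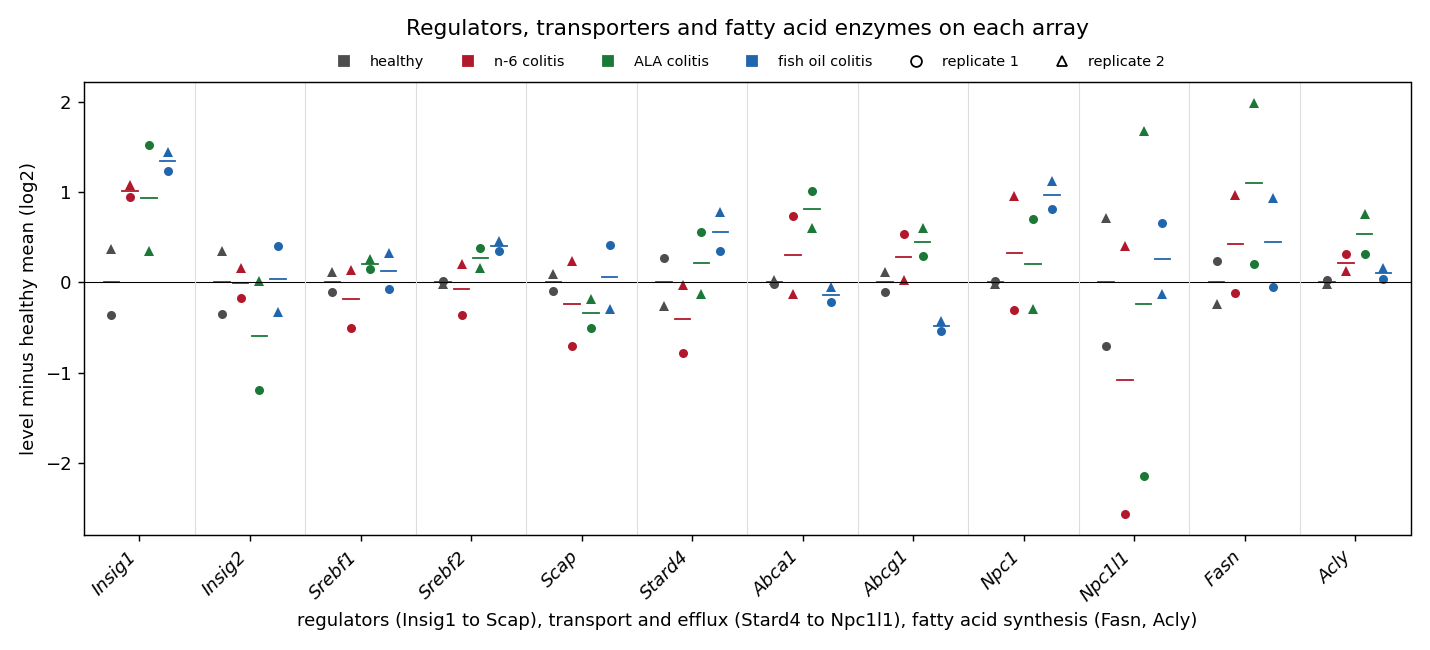
Level of the 5 regulators, 5 transport and efflux genes and 2 fatty acid synthesis genes on each of the 8 arrays, as the log2 difference from that gene's healthy mean (y axis; genes on the x axis). Colours are groups, circles and triangles are replicates 1 and 2 and short lines are group means; Abcg1 is lowest on both fish oil arrays, and Npc1l1 is spread widest within groups.

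Both fatty acid genes tested had their highest group mean in ALA colitis. For Acly, ALA replicate 1 alone, at 4.04, was still above the n-6 mean of 3.94, the next highest. For Fasn the order rested on ALA replicate 2. The median of both genes was 1.37 above the healthy mean on that array and 0.26 above it on ALA replicate 1. It was 0.55 above on replicate 2 of n-6 and 0.55 on replicate 2 of fish oil. Acly, which makes cytosolic acetyl-CoA for both branches, read 3.75 and 3.70 in healthy, 4.03 and 3.85 in n-6, 4.04 and 4.49 in ALA, and 3.77 and 3.89 in fish oil. ALA replicate 2 was the highest of the 8 and ALA replicate 1 was level with n-6 replicate 1, and the ALA mean was 0.43 above fish oil (SE 0.30, limma adjusted p = 0.617). Fasn, the fatty acid synthase, read 1.96 and 1.48 in healthy, 1.60 and 2.69 in n-6, 1.92 and 3.71 in ALA, and 1.67 and 2.66 in fish oil. Replicate 2 was the higher one in each colitis group and the groups overlapped. The median of the 6 adipocyte markers tested was likewise higher on replicate 2 in each colitis pair. It differed from the healthy mean by -2.0 and 0.22 in n-6, -1.91 and -0.25 in ALA, and -0.93 and -0.28 in fish oil. Lipe went the other way in fish oil, at -3.36 on replicate 1 and -5.11 on replicate 2. In the healthy pair the marker median was also higher on replicate 2 (-0.83 and 0.83), whereas Fasn was lower on replicate 2. The part of these markers in the Fasn levels was not tested. Neither gene followed the enzyme mean over the 8 arrays (r = 0.29 for Fasn and 0.10 for Acly). Acaca lay between -6.81 and -5.40, near background.

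Other genes of these pathways, which are not among the 32, were read from 3 further lists. In none of the 6 comparisons did a gene of these lists pass limma's adjusted threshold. Of 17 tested genes of sterol synthesis and uptake, 14 were higher in fish oil than in n-6, with a median of 0.55, and 3 had an unadjusted p under 0.05 in that direction and 1 in the other, where 12% of all genes did in either direction. Msmo1, a sterol methyl oxidase of the same pathway, was 1.24 above healthy in fish oil and 1.02 above it in ALA. Its n-6 arrays, at 4.92 and 5.52, also lay above the healthy ones at 4.24 and 4.03. The level of Msmo1 followed the enzyme mean (r = 0.88). Msmo1 was named after its values were seen. Scarb1, the HDL receptor, was 0.96 above healthy in n-6 and lay 0.93 below n-6 in fish oil (log2 difference -0.93, SE 0.28).

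Among 15 LXR target and lipoprotein genes, 3 were higher in ALA than in fish oil at an unadjusted p under 0.05 and 0 lower, where 9.6% of all genes passed in either direction. The list as a whole leaned the other way, with 9 of 15 lower in ALA and a median of -0.20. Of all 18171 genes, 8897 were lower in ALA than in fish oil. Ch25h, which makes 25-hydroxycholesterol in macrophages, was 1.48 above healthy in n-6 and differed by -1.56 between fish oil and n-6. Of 22 genes of fatty acid and triglyceride synthesis, 18 were higher in ALA than in n-6 and 16 in fish oil than in n-6. Of all 18171 genes, 10228 were higher in ALA than in n-6 and 9164 in fish oil than in n-6. Acss2, which makes acetyl-CoA from acetate, lay at 2.07 in healthy, 0.27 in n-6, 1.29 in ALA and 1.57 in fish oil.

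Markers of several cell types also varied between the arrays, and their part in the differences was not tested. The 9 colonocyte markers were a median of 2.68 below the healthy mean on n-6 replicate 1 (median difference -2.68) and differed by -0.65 on n-6 replicate 2, -0.77 and -0.48 on the ALA arrays, and 0.20 and 0.19 on the fish oil arrays. Replicate 1 of n-6, where the enzymes were nearest to healthy among the colitis arrays, was thus also the array with the lowest colonocyte markers. The ALA pair ran the other way. Replicate 1 had the higher enzymes (1.14 against 0.32) and the lower colonocyte markers (-0.77 against -0.48). On the fish oil arrays the median of the colonocyte markers was near the healthy level and the enzymes were above it. Single markers differed between fish oil and healthy by -0.84 to 0.49. Over the 8 arrays their r with the enzyme mean ran from -0.12 (Car1) to 0.79 (Car4). The summed colonocyte level ran from 8.87 to 9.09 in healthy, 7.50 to 9.06 in n-6, 8.51 to 8.56 in ALA and 8.80 to 9.37 in fish oil.

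The 6 proliferation markers differed from the healthy mean by 1.68 and -1.09 on the n-6 arrays, 0.53 and 1.22 on the ALA arrays, and -1.62 and -1.23 on the fish oil arrays. They were therefore low on the fish oil arrays, where the enzymes were high, and their summed level ran from 3.0 to 3.03 in healthy and from 1.47 to 1.87 in fish oil. All 8 macrophage markers were higher in n-6 than in healthy, 6 of them without overlap (23.8% of all genes), with a median of 1.08. Their summed level ran from 3.48 to 3.80 in healthy, 4.39 to 4.69 in n-6, 3.96 to 4.06 in ALA and 3.84 to 4.41 in fish oil. Adipocyte markers varied within every group, with a summed level from 2.85 to 5.97 between the n-6 arrays and from 2.55 to 4.63 between the ALA arrays.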

How the data were processed

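The arrays were 1-colour Cy3 Agilent arrays of a custom rat design. Per the file headers, Agilent Feature Extraction 11.5.1.1 made the deposited intensity values by subtracting background and removing spatial trends, without scaling between arrays. A value table of the authors gives log2 values of 26205 gene symbols. Every array of it has a 75th percentile between 0.0032 and 0.00898, its column medians were -2.93 and -3.18 (healthy), -3.14 and -3.15 (n-6), -2.89 and -3.15 (ALA) and -2.93 and -3.10 (fish oil), and how its probes were joined is not stated in the sources used here.

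Control and outlier spots were left out, spots of a probe were averaged, and each log2 processed signal was set against the 75th percentile of its array by subtraction. Probes entered if any group had them well above background on its 2 arrays (20801 of 30367), and the probe with the highest mean signal stood for a gene. Names came from RefSeq GRCr8, which matched 18355 probes by accession, 445 by another accession, 2535 by symbol and 410 by synonym, while 8622 kept the name of the file. A model of 4 group means was fitted to all 8 arrays with limma 3.58.1 in R 4.3.3, adjusted by Benjamini-Hochberg over 18171 genes, with a threshold of 0.05, and the fit was tested on simulated data. Promoter letters are RefSeq's, on GRCr8. Alternatives were the background correction, scaling, filter, probe joining, naming, spread, replicate block, slide column and leaving out each array. The genes and lists were chosen with earlier results of these data known. Named genes had, in n-6 versus healthy or an n-3 diet versus n-6, an unadjusted p under 0.05 and no overlap of the arrays. Values are given for the other genes too, since all 32 are accounted for.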

Additional observations from a re-analysis of the deposited data

How the results depend on the processing

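Every count of the 28 genes past limma's adjusted threshold was 0 under each alternative run in all 6 comparisons, the replicate block included. The replicate numbers gave correlations of array deviations from -0.17 to 0.47, with the highest between healthy and ALA. These values do not settle whether the numbers pair the arrays, and the main fit used no pairing. With the replicate block 0 of 28 genes were called in each comparison, and 7 enzymes kept an unadjusted p under 0.05 as a count in fish oil versus healthy. The slide column could be a block only in n-6 versus healthy and ALA versus fish oil, with 0 calls, and the slide row could not be fitted. No named gene changed direction.

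The enzyme median of fish oil versus healthy was 0.75 with normexp, where the median of all genes was 0.24, and 0.86 with quantile normalization. The count of enzymes higher without overlap in fish oil versus n-6 was 4 with median centring. The transport median of fish oil versus n-6 was 0.10 over genes well above background on all arrays, and that of ALA versus fish oil was -0.11 with normexp, -0.42 with median centring and 0.29 over genes well above background on all arrays.

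With each array left out in turn, the enzyme median ran from 0.036 to 0.65 (n-6 versus healthy), 0.32 to 1.14 (ALA versus healthy), 0.88 to 1.06 (fish oil versus healthy) and -0.62 to -0.0052 (ALA versus fish oil). The transport median ran from -0.31 to 0.31 (n-6 versus healthy), -0.00092 to 1.28 (fish oil versus n-6) and -0.13 to 0.74 (ALA versus fish oil). Enzymes higher without overlap in n-6 versus healthy ran from 7 to 14, and the 7 enzymes with an unadjusted p under 0.05 in fish oil versus healthy from 0 to 9. A lone array was assumed to vary like the other groups. Where a group keeps 1 array, any gene more readily shows no overlap. The count of 14 is therefore not comparable with the 7. The list counts and medians against healthy in ALA and fish oil, and the overlap counts, were chosen after the data were seen.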
